A study of Mus musculus with 6 samples.

Results

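The BCL2 family sets whether a T cell survives or dies through its mitochondria, and this account covers 10 of its genes in regulatory T cells (Treg) with and without the histone acetyltransferase p300. The genes were taken by name. A probe set counted when the platform annotation gave the gene as its only symbol, which yielded 24 probe sets of 9 genes, out of 20380 such probe sets of 12393 genes on the array. Bax had 0 probe sets under this rule and is not analysed here. All 9 measured genes passed the filter on dim genes.

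Total RNA of CD4+CD25+ T cells, separated magnetically from C57Bl/6 mice, was read on 6 expression arrays, 1 per sample. In 3 samples the genotype was fl-p300/Foxp3cre, in which a Cre recombinase expressed from Foxp3 removes the floxed p300 gene (Ep300). The other 3 carried Foxp3cre without the floxed gene and are named WT in their titles, so the Cre allele is common to both groups. The labels give neither age nor sex, nor how many animals stand behind a sample, so p-values measure the spread from sample to sample only, and part of it may be technical. Values are log2 signals after RMA, and a difference is p300-deleted minus control on that scale.

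Proteins of the family fall into groups that act on each other at the outer mitochondrial membrane. The survival proteins BCL2, BCL-XL (Bcl2l1) and MCL1 hold the pore-forming effectors BAX and BAK (Bak1) in check. BH3-only proteins, among them BIM (Bcl2l11), BID, BAD, PUMA (Bbc3) and NOXA (Pmaip1), sense stress or loss of growth factor and bind the survival proteins, and some also activate the effectors directly. Once the pore opens, cytochrome c leaves the mitochondrion and caspases are activated. Treg depend on interleukin-2 for survival, with MCL1 as a main protector and BIM as a main killer.

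No measured gene of the family passed the test between the groups, and the differences were small. Of the 9 members 0 rose and 0 fell in limma, where a gene was called at a Benjamini-Hochberg adjusted p under 0.05. Of the 8676 genes tested 1.72% were called, 0.991% as higher and 0.726% as lower in p300-deleted cells. At an unadjusted p under 0.05 there were 2 members, Bcl2 and Bcl2l1, which is 22.2% of the 9 against 18.1% of all genes tested. Differences ran from -0.29 for Bcl2l1 to 0.38 for Bcl2, the latter a 1.30-fold higher level in p300-deleted cells. The 95% intervals of the 9 differences lay between -0.76 and 0.68, so a change by 2-fold or more falls outside each interval when a gene is read by its brightest probe set. The median difference of the 9 was -0.13, beside -0.03 for all genes tested.

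Before the single members, the samples need description. Foxp3, the lineage factor of Treg and the gene that carries the Cre, read 9.63, 9.35 and 9.39 in controls but 2.57, 3.04 and 3.15 in p300-deleted samples by its 1 probe set (difference -6.53, SE 0.16, limma adjusted p = 4.45e-07). The low values lie under the lower quartile of their own arrays (3.26 to 3.29), so the p300-deleted samples lack the defining transcript of their label at this probe set. Of 9 tested Treg markers Foxp3 was the 1 that fell and 0 rose, while 7 had positive differences and the list median was 0.23. CD25 (Il2ra) was at 9.14 ± 0.05 (SD, n = 3) against 8.89 ± 0.24 (SD, n = 3), and CD3 epsilon (Cd3e) at 11.54 ± 0.08 against 11.38 ± 0.16. Cd4 was at 9.89 ± 0.17 against 9.21 ± 0.27, with limma adjusted p of 0.0749, 0.529 for Cd3e and 0.378 for Il2ra. The deleted gene could not be checked, because 0 probe sets bear the symbol Ep300 in the annotation used here.

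Markers of other cells differed between the groups. List levels below are means over all genes of a list that had a probe set, dim untested ones included, which were 9 plasma cell, 11 mast cell and basophil, 17 myeloid and 33 cell cycle genes. Of 9 plasma cell markers 5 rose, and the mean level of the list was 8.12 to 8.58 in p300-deleted arrays and 7.35 to 7.50 in controls. Of 10 tested mast cell and basophil markers 6 rose, with list levels of 5.31 to 5.88 against 4.54 to 4.70. All 15 tested myeloid markers had positive differences, with 0 called by limma and 7 at an unadjusted p under 0.05, and list levels of 5.95 to 6.94 against 5.24 to 5.82. Of 10 NK and cytotoxic markers 2 rose and 0 fell, with 5 positive and 5 negative differences. Of 7 tested B cell markers 1 fell, and all 7 had negative differences, with a list median of -0.30. Both tested CD8 T cell markers had positive differences, with 0 called. Of 31 tested cell cycle genes 6 fell, and their list levels were 6.65 to 7.05 against 7.26 to 8.14. Some defining markers were too dim to be tested, namely Cd14 and Itgam of myeloid cells, Ms4a2 of mast cells, and Pax5, Ebf1, Cr2 and Fcer2a of B cells. The part of other cells and of cycling cells in the members' values was not tested. In bulk RNA, fewer cells that express a gene and less of its RNA per cell cannot be told apart.

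Promoter sequence is shown for the survival gene Bcl2 and for its antagonist Bcl2l11, whose values lay apart in opposite directions in the data below. Each line gives the 250 bases before the annotated start, read 5′ to 3′ on the gene's strand, from RefSeq, assembly GRCm38.p6. The window of Bcl2 is chr1:106714291-106714540 on the minus strand, and capitals mark TGACG, the core of the cAMP response element to which CREB, a partner of p300 and CBP, binds. The window of Bcl2l11 is chr2:128125788-128126037 on the plus strand, and capitals mark GTAAACA, a site of FOXO factors.
Bcl2: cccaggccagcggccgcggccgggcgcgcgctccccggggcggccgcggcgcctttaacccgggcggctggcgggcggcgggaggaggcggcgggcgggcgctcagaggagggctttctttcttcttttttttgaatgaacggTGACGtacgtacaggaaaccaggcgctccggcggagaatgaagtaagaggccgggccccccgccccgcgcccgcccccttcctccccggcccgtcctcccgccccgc
Bcl2l11: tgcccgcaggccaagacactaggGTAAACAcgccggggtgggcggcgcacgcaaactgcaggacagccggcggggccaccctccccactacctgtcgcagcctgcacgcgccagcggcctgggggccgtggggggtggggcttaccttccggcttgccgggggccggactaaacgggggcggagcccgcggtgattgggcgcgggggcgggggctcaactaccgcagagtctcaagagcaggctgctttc

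Both windows are rich in CpG, with 36 CpG dinucleotides for Bcl2 and 24 for Bcl2l11 against a median of 6 over 32851 windows of that length. Of 15 annotated windows of 9 members, Bax included and Pmaip1 not shown, 14 held at least that median, and 1 start of Bcl2l1 held 0. Several windows belong to 1 gene and some overlap, so they are not independent. Searched on both strands, TGACG was in 2 of the 15 windows (Bcl2 and 1 of Bbc3) and in 17.8% of all windows. GTAAACA was in 2 of 15 (1 of Bcl2l11 and 1 of Bbc3) and in 3.17% of all, and TTCNNNGAA, a site of STAT factors, was in 0 of 15 and 7.02%. The full element TGACGTCA, which holds the TGACG core, was in 0 of 15 and 1.55% of all. A match is a description of letters and was not tested against the expression values.

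Among the survival genes, Bcl2 had the largest difference of the 9 members. It read 6.42, 6.65 and 6.84 in the p300-deleted samples and 6.37, 6.15 and 6.24 in the controls. The groups did not overlap, but the lowest p300-deleted sample stood only just above the highest control. The difference was 0.38 (SE 0.13, 95% interval 0.08 to 0.68, limma unadjusted p = 0.0188, adjusted p = 0.185). It kept its sign under all 16 alternatives run for it, from 0.28 without p300-deleted 3 to 0.49 without p300-deleted 1. It passed the threshold under 0 of them. With 1 probe set, changes of dim filter, variance model, replicate block, threshold or mean of probe sets cannot move the difference. It stayed at 0.38 under these, so they do not test its sign.

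Bcl2l1, which encodes the survival protein BCL-XL and by splicing the shorter, death-promoting BCL-XS, had the lowest p of the members. Its brightest probe set read 7.83, 7.79 and 7.79 in p300-deleted samples and 8.14, 8.08 and 8.05 in controls. The spread within each group was small (SD 0.02 and 0.05, n = 3 each) and the groups were well separated. The difference was -0.29 (SE 0.09, 95% interval -0.50 to -0.07, limma unadjusted p = 0.0147, adjusted p = 0.168), a 1.22-fold lower level. Bcl2l1 was the 1 member called under any alternative, with limma's array weights (-0.32, adjusted p = 0.0360, range over its 16 alternatives 0.0360 to 0.981). That setting called 1019 of 8676 genes tested, against 149 in the fit reported. The 1 call among 9 members was near that share of all genes.

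The other probe sets of Bcl2l1 did not share this pattern. The next in brightness, 1420887_a_at, read 4.98, 4.89 and 5.31 against 5.42, 4.76 and 5.48, with overlapping groups and a difference of -0.16. Probe sets 1426191_a_at and 1426050_at, with means of 3.41 and 2.58 over all arrays and thus below the limit of 3.91 that was used for dim genes, had differences of 0.33 and 0.15. With the mean of all 4 probe sets in place of the brightest, the difference of Bcl2l1 was 0.01. Which splice forms each probe set binds is not stated in the sources used here.

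Mcl1, the survival protein with a short half-life, was read by 6 probe sets, and all 6 had positive differences, from 0.08 to 0.49. The brightest read 11.32, 11.57 and 11.42 in p300-deleted samples and 11.31, 11.13 and 11.30 in controls. These groups were separated by less than the spread within them, and the difference was 0.19 (SE 0.11, 95% interval -0.07 to 0.45, limma adjusted p = 0.420). The dimmest of the 6, 1416881_at, stood furthest apart, at 9.43, 9.55 and 9.27 against 8.91, 8.76 and 9.10. Its difference of 0.49 (SE 0.13) had the lowest p of the 24 probe sets, with limma unadjusted p = 0.0041 and adjusted p = 0.133 over all 22626 probe sets that are not controls. Groups overlapped for the remaining probe sets of Mcl1, 1437527_x_at, 1416880_at, 1456243_x_at and 1456381_x_at. The 6 probe sets read 1 transcript on the same 6 arrays, so their common sign is not independent evidence.

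**Figure D1:**
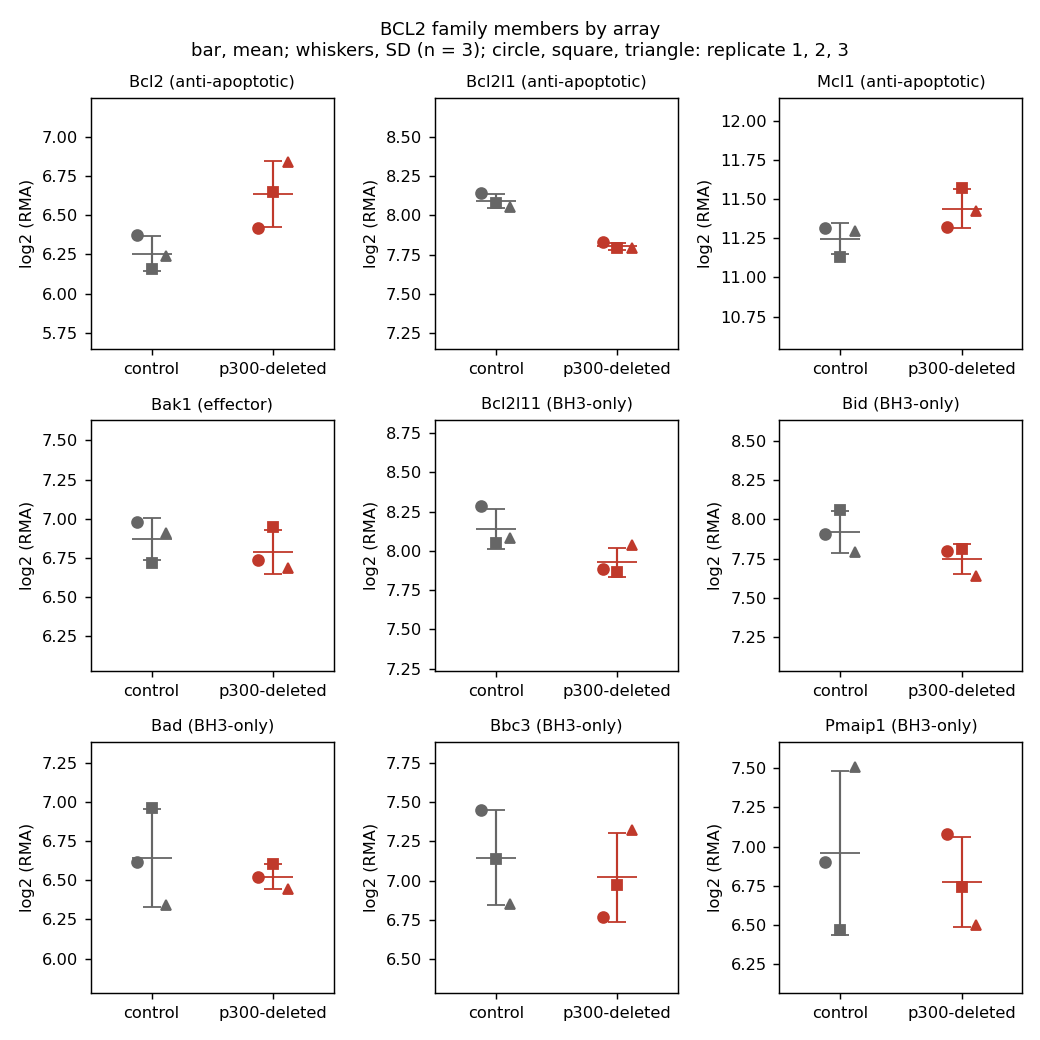
Log2 signal of the brightest probe set of each measured member in the 3 control (grey) and 3 p300-deleted (red) samples; every panel spans 1.6 log2 units, bars are means and whiskers SD. Bcl2, Bcl2l1, Mcl1 and Bcl2l11 have groups that do not overlap, and the other 5 members overlap.

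Bak1, the effector that could be read, encodes a protein that opens the outer membrane by forming oligomers. It read 6.74, 6.95 and 6.68 in p300-deleted samples and 6.98, 6.72 and 6.91 in controls. The groups overlapped and the difference was -0.08 (SE 0.12, 95% interval -0.35 to 0.19, limma adjusted p = 0.782). A second, dimmer probe set, 1425716_s_at, had the opposite sign, at 0.36 (SE 0.21, limma adjusted p = 0.509), with overlapping groups.

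The brightest probe sets of all 5 BH3-only genes had negative differences, from -0.21 to -0.12, with 0 called. Negative differences made up 55.0% of all genes tested. Bcl2l11, which encodes BIM, a binder of every survival protein in the family, stood furthest from 0. It read 7.89, 7.87 and 8.04 in p300-deleted samples and 8.29, 8.05 and 8.08 in controls. The groups did not overlap, though p300-deleted 3 and control 2 lay side by side, and the difference was -0.21 (SE 0.11, 95% interval -0.47 to 0.04, limma adjusted p = 0.369).

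Of the 5 probe sets of Bcl2l11, 4 had negative differences. The second in brightness, 1456005_a_at, was also at -0.21, with groups that overlapped. The dimmest, 1426334_a_at, read 3.28, 3.42 and 3.52 against 3.67, 3.83 and 3.70, a difference of -0.32 (SE 0.11, limma unadjusted p = 0.0178, adjusted p = 0.236) without overlap but below the dim limit. Probe set 1435449_at was at 0.20 and 1456006_at at -0.02. The sign of Bcl2l11 in the gene fit was negative under all 16 alternatives, from -0.32 to -0.11. Those for the dim filter, variance model, replicate block and threshold cannot move a difference.

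Bid, which caspase-8 cleaves to link death receptors to mitochondria, gave opposite readings by its probe sets. The brighter, 1417045_at, read 7.80, 7.81 and 7.64 in p300-deleted samples and 7.91, 8.06 and 7.79 in controls, with control 3 just below 2 of the p300-deleted samples. Its difference was -0.17 (SE 0.11, limma adjusted p = 0.475). The dimmer, 1448560_at, read 5.70, 5.46 and 5.31 against 5.14, 4.55 and 5.21, with no overlap and a difference of 0.52 (SE 0.19, limma unadjusted p = 0.0233, adjusted p = 0.262). No direction can be given for Bid from these readings.

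Bad, whose protein is held inactive by growth factor signals through phosphorylation, read 6.52, 6.60 and 6.44 in p300-deleted samples and 6.62, 6.96 and 6.34 in controls. The controls spread on both sides of the p300-deleted samples, and the difference was -0.12 (SE 0.16, limma adjusted p = 0.747). Its second probe set, 1416582_a_at, was at -0.05.

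Bbc3 and Pmaip1, both classical targets of p53, varied more within the groups than between them. Bbc3 (PUMA) read 6.76, 6.97 and 7.32 in p300-deleted samples and 7.45, 7.14 and 6.85 in controls, a difference of -0.13 (SE 0.19, 95% interval -0.55 to 0.30, limma adjusted p = 0.782). Pmaip1 (NOXA), whose protein binds MCL1, read 7.08, 6.75 and 6.50 against 6.90, 6.47 and 7.51. It had the widest control spread of the 9 members (SD 0.52, n = 3), with control 3 alone far above the rest. Its difference of -0.18 (SE 0.25, 95% interval -0.76 to 0.39, limma adjusted p = 0.760) was 0.09 without that array. Control 3 also had the highest list level of the cell cycle genes, 8.14, and the part of cycling cells in the NOXA value was not tested.

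**Figure D2:**
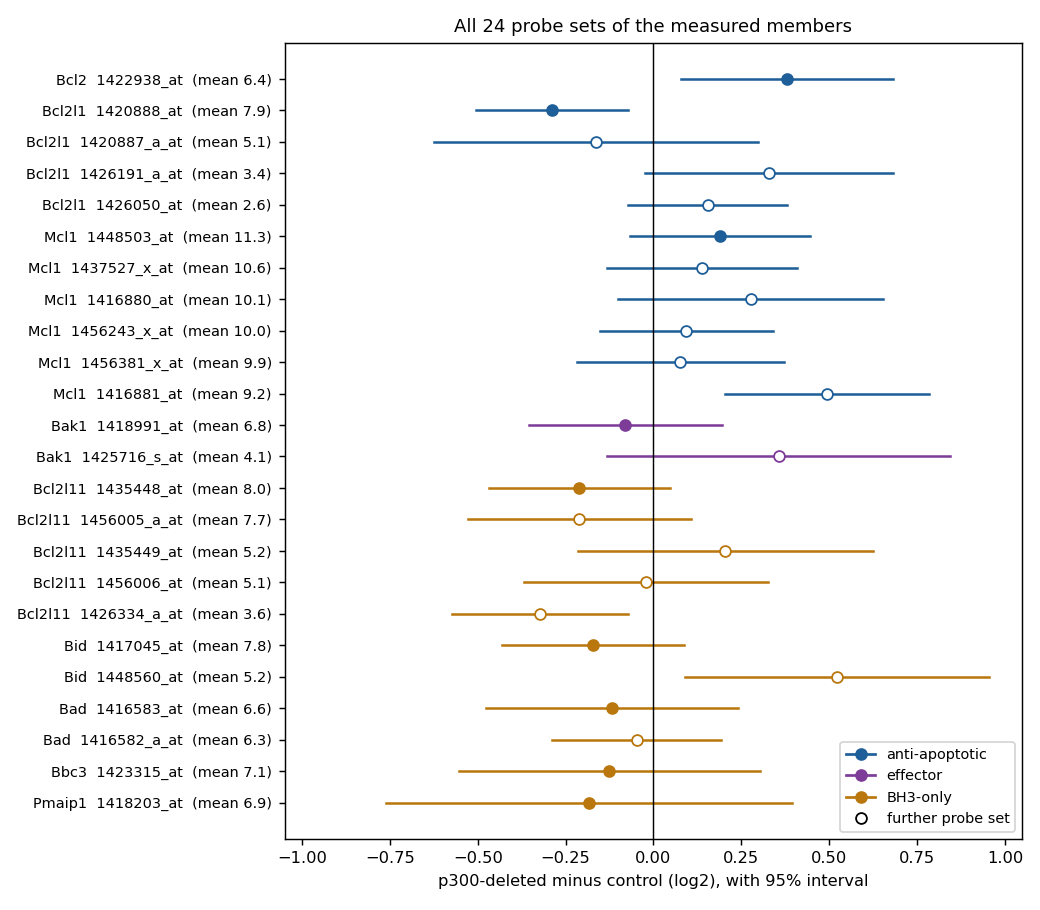
Difference of each of the 24 member probe sets on the log2 scale with its 95% interval from limma; filled points are the brightest probe set of a gene, open points the further ones, and the mean level over all arrays stands beside each name. Of the 11 survival gene probe sets 9 lie above 0, and of the 11 BH3-only probe sets 9 lie below 0.

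Taking every probe set, 0 of 24 were called, against 0.455% of all 22626 probe sets. The unadjusted p was under 0.05 for 5 of the 24 (20.8%), against 14.4% of all probe sets. Groups did not overlap for 8 of 24 (33.3%), against 19.5% of all, and in the gene fit for 4 of 9 members (44.4%), against 23.7%. Of 11 probe sets of the survival genes 9 were positive, and of 11 probe sets of the BH3-only genes 9 were negative, while 53.4% of all probe sets were negative. Probe sets of 1 gene share their transcript and arrays, and 6 of the 9 positive ones belong to Mcl1.

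A single control array stood at the low end of many of these readings. Control 2 was the lowest of the 6 arrays for 13 of the 24 member probe sets (54.2%), while it was the lowest for 20.6% of all probe sets. The 13 include all 6 probe sets of Mcl1, which read 1 transcript. Control 2 was the highest array for 3 of the 24 (12.5%) and for 26.2% of all probe sets. Its Gapdh controls, whose 3′ signal exceeds the 5′ signal more where RNA is degraded, had the largest excess of the 6 arrays, at 0.59 on the log2 scale, against 0.21 and 0.23 in the other controls and 0.06 to 0.14 in the p300-deleted arrays. By the actin controls it hardly stood apart, with an excess of 0.46 against 0.40 and 0.30 in the other controls and 0.36, 0.43 and 0.29 in the p300-deleted arrays. The part of RNA quality was not tested. Without control 2 the differences of Bcl2, Bcl2l1, Mcl1 and Bcl2l11 were 0.33, -0.29, 0.13 and -0.26, each with its sign kept, while Bad moved to 0.04 and Pmaip1 to -0.43.

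Because survival and BH3-only proteins act by binding each other, the log2 difference of a survival gene and a BH3-only gene was also taken within each array and centred on its mean over the 6 arrays. Centring removes the unequal brightness of probe sets and leaves a relative shift. The 4 pairs were chosen after the values of single members had been seen, so they are described without a test. For Bcl2 relative to Bcl2l11 the p300-deleted arrays stood at 0.12, 0.37 and 0.39 and the controls at -0.33, -0.31 and -0.26. All p300-deleted arrays lay above all controls, with a shift of 0.59, which ran from 0.49 to 0.68 over 15 alternatives. Those for the dim filter, median centring, variance model and replicate block cannot move such a shift.

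Mcl1 relative to Bcl2l11 stood at 0.13, 0.39 and 0.08 against -0.28, -0.23 and -0.09, again without overlap and with a shift of 0.40. Mcl1 relative to Pmaip1, whose protein binds MCL1, stood at -0.23, 0.35 and 0.45 against -0.06, 0.19 and -0.68, with wide overlap. Bcl2l1 relative to Bad stood at -0.06, -0.18 and -0.02 against 0.16, -0.25 and 0.34, also with overlap. By the brightest probe sets, Bcl2 and Mcl1 did not overlap upward and Bcl2l11 did not overlap downward. The separation of both pairs with Bcl2l11 thus follows from the single genes and adds no evidence to theirs.

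**Figure D3:**
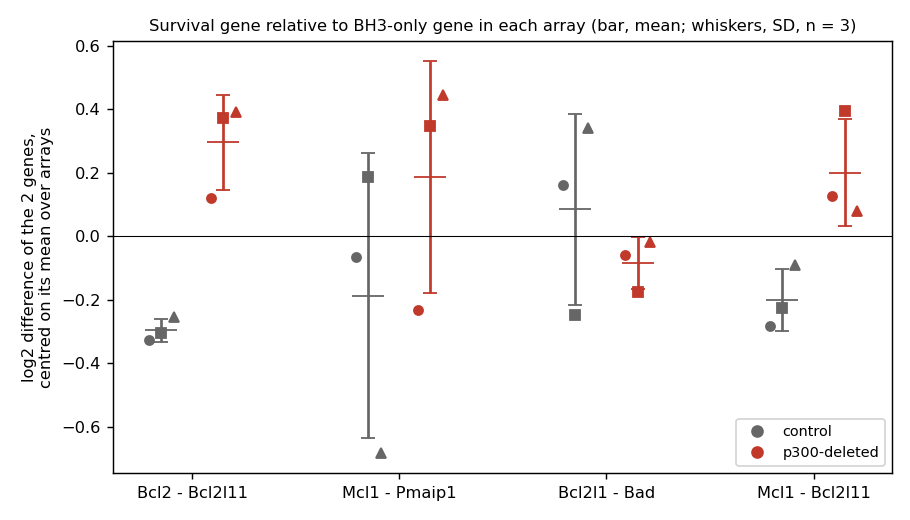
Log2 difference of a survival gene and a BH3-only gene in each array, centred on its mean over the 6 arrays, for 4 pairs; grey is control, red p300-deleted, circles, squares and triangles are replicates 1, 2 and 3, bars are means and whiskers SD (n = 3). The groups separate for Bcl2 and for Mcl1 relative to Bcl2l11, and overlap for the other 2 pairs.

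Of 16 other genes of the family 11 had a probe set of their own, 8 were bright enough to be tested, and limma called 0 of these, with 1 at an unadjusted p under 0.05. Bcl2l2, which encodes the survival protein BCL-W, read 6.41, 6.08 and 6.28 in p300-deleted samples and 5.85, 5.37 and 6.02 in controls by its brightest probe set. The groups were close but did not overlap, with a difference of 0.51 (SE 0.17, limma adjusted p = 0.180), and its other 3 probe sets were at 0.05, 0.06 and -0.17. Bnip3, a mitochondrial protein of hypoxia and mitophagy, was at 0.36 (SE 0.19, limma adjusted p = 0.364). Its difference was 0.58 without control 2 and 0.23 without control 1, and it was called with array weights (0.58, limma adjusted p = 0.0411). Array weights called 1019 of 8676 genes tested. Bmf, Bcl2l10 and Bcl2l15 were below the dim limit.

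Downstream of the pore, limma called 0 of 21 tested genes of the mitochondrial death pathway, with 2 at an unadjusted p under 0.05 and a median difference of -0.04. Birc5, which encodes survivin, an inhibitor of apoptosis protein that works mainly in mitosis, was at -1.06 (SE 0.26, limma adjusted p = 0.0835), with 7.42, 6.93 and 6.87 against 7.92, 7.75 and 8.73. It is also 1 of the 31 cell cycle genes, of which 26 were lower at an unadjusted p under 0.05. Xiap, a direct caspase inhibitor, was at 0.48 (SE 0.15, limma adjusted p = 0.158) by its brightest probe set, while its next 2 were at -0.07 and -0.21.

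In the death receptor pathway 1 of 11 tested genes rose and 0 fell, with a list median of -0.15. This was Fas, the receptor that starts the caspase-8 route to BID. Fas read 7.59, 7.66 and 7.45 in p300-deleted samples and 7.01, 6.87 and 7.09 in controls, so that every p300-deleted sample was higher by more than the spread within either group. It rose by 0.58 (SE 0.11, limma adjusted p = 0.0459). The call was lost with any 1 of 5 arrays left out, control 3 being the exception, and it was past the threshold under 7 of 16 alternatives. Tnfrsf1b, the TNF receptor 2 of activated Treg, was at -0.52 (SE 0.14, limma adjusted p = 0.110).

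Of 29 tested genes that act on the members, 2 rose and 0 fell, with a list median of -0.12. Usp9x, a deubiquitinase that stabilises the MCL1 protein, read 6.99, 7.04 and 7.05 in p300-deleted samples and 6.50, 6.32 and 6.53 in controls. It rose by 0.58 (SE 0.10, limma adjusted p = 0.0406), and 6 of its 7 probe sets had positive differences. Ywhaz, the zeta form of the 14-3-3 proteins that hold phosphorylated BAD in the cytosol, read 11.80, 11.67 and 11.77 against 10.99, 10.91 and 11.31. It rose by 0.67 (SE 0.13, limma adjusted p = 0.0459), and its 7 probe sets ran from -0.19 to 0.87, with 5 above 0. In the fit over all probe sets, 1 of these passed (0.63, SE 0.10, limma adjusted p = 0.0390), while the brightest probe sets of Fas, Usp9x and Ywhaz did not (0.0707, 0.0628 and 0.0707). By the brightest probe sets, the arrays of the groups were well apart for Usp9x and Ywhaz. The next brightest of Ywhaz was apart in the other direction, with a difference of -0.19. It stood at 10.92 ± 0.04 (SD, n = 3) in p300-deleted samples and 11.11 ± 0.06 (SD, n = 3) in controls. Groups overlapped for some further probe sets of both genes.

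Usp9x was past the threshold under 8 and Ywhaz under 7 of 16 alternatives, and both calls were lost with any 1 of the 6 arrays left out except control 3, with adjusted p up to 0.179 for Usp9x and 0.162 for Ywhaz. The differences themselves stayed between 0.51 and 0.62 for Usp9x, 0.59 and 0.79 for Ywhaz and 0.52 and 0.64 for Fas in these 6 fits, in which the count called over the whole table ran from 7 to 230. In p300-deleted samples 1 to 3 the mean 18S control signal read 7.74, 9.47 and 7.91, against 5.68, 6.03 and 8.69 for the controls. With it as a covariate the calls of Fas, Usp9x and Ywhaz were lost (limma adjusted p = 0.179, 0.145 and 0.178), and its part in their differences was not tested further. With the mean of all probe sets Usp9x was at 0.28 and Ywhaz at 0.40, with limma adjusted p of 0.180 and 0.161.

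**Figure D4:**
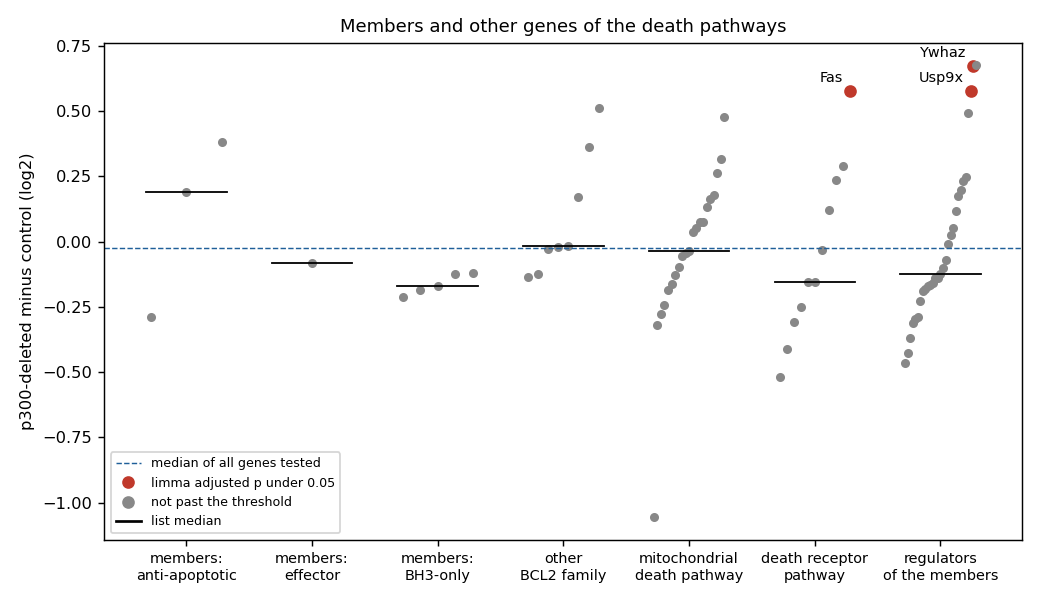
Difference on the log2 scale (p300-deleted minus control) of each tested gene of the members by role and of 4 lists of related genes; red points passed limma's adjusted p of 0.05, black bars are list medians and the dashed line is the median of all genes tested. The red points are Fas, Usp9x and Ywhaz, and 0 members are red.

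By the size of the difference between centred values over the 6 arrays, the genes most like Bcl2l1 were Eif5a, Recql and Becn1. Their root mean square differences from Bcl2l1 were 0.02, 0.03 and 0.03 on the log2 scale. Eif5a, a translation factor, was at -0.27 (limma adjusted p = 0.198), Recql, a DNA helicase, at -0.27 (0.206) and Becn1, the autophagy protein Beclin 1, at -0.33 (0.124). None of the 3 passed the threshold, which follows in part from matching them to Bcl2l1. With the mean of all probe sets they were at -0.21, -0.06 and -0.12 in that order, so the likeness concerns the brightest probe sets.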

How the data were processed

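The authors deposited log2 values, 1 per probe set and array. The submitters' processing notes name RMA, without a version. RMA sets all arrays to a common distribution, so a change in total RNA per cell is not visible, and dim signals are compressed by background. Of 22690 probe sets, 64 are controls. Groups and replicate numbers came from the sample titles.

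Each of 12393 genes was read by its brightest probe set. After the dimmest 30% (means under 3.91) had been left out, 8676 genes were fitted in R 4.3.3 with limma 3.58.1 (lmFit, eBayes). The test was two-sided, without covariates, and p-values were adjusted by Benjamini-Hochberg. A second fit took all 22626 probe sets that are not controls. Precision is limited by the number of arrays, 3 in each group. The fit was tested on simulated data with known changes.

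Members, lists and tests were chosen with earlier results of these data known. Named genes are all members, in each of 4 pathway lists those past the threshold (up to 4) and, where fewer than 2 passed, the 2 with the lowest p, the 3 genes most like the member with the lowest p, and Foxp3, Cd4, Cd3e and Il2ra. Probe sets with the suffix _s_at, _x_at or _a_at may hybridize to more than 1 transcript. The alternatives were the dim filter, normalization, variance model, array weights, replicate block, an 18S covariate, threshold, mean of probe sets and leaving out each array. No protein sequences were used here, and no sequence is shown from chromosome 18, where Pmaip1 lies.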

Additional observations from a re-analysis of the deposited data

How the results depend on the processing

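Of the 9 members, 0 were called under every alternative of the gene fit but array weights, which called 1, Bcl2l1 (-0.32, adjusted p = 0.0360), and of the 24 member probe sets 0 were called under every alternative run for them, including all 6 fits that leave out an array (0 to 0). The count of genes called over the whole table, 149 in the fit reported, was 1019 with array weights, 98 with the replicate block, 15 with the 18S covariate, 399 at an adjusted p under 0.10 and 95 with the mean of all probe sets, and ran from 7 to 230 with 1 array left out. The replicate numbers are not known to pair samples. Deviations of same-numbered samples correlated at -0.08, 0.12 and -0.12, and not every sample correlated best with its own number, since p300-deleted 1 did so with control 3 (0.23). The replicate block called 0 members. Signs of members without a call turned in these cases, and the cause was not tested. With the 18S covariate Bad was at 0.024 and Bbc3 at 0.075. With the mean of all probe sets Bak1 was at 0.14, Bcl2l1 at 0.0078 and Bid at 0.18, and Bcl2l1 relative to Bad at 0.091. With 1 array left out, Bbc3 ran from -0.28 to 0.026 (positive without control 1, and 0.0021 without p300-deleted 1), Bad from -0.27 to 0.042 (positive without control 2) and Pmaip1 from -0.43 to 0.090 (positive without control 3). By further probe sets, Bcl2l1 was at 0.33 and 0.15, Bak1 at 0.36, Bcl2l11 at 0.20 and Bid at 0.52. Bcl2, Mcl1 and Bcl2l11 kept their sign under all 16 alternatives of the gene fit. Those for the dim filter, variance model, replicate block and threshold leave a difference as it was and do not test its sign. Probe sets near background compress differences, which limits what the dim ones of Bcl2l1 and Bcl2l11 can show.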

Other observations

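Further genes of the pathways were looked at after their values had been seen, and 0 of those named here passed in limma. Mapk8, the kinase JNK1 that phosphorylates several family members, was at 0.68 (SE 0.14, limma adjusted p = 0.0569), while its relative Mapk9 was at -0.29 (adjusted p = 0.236). Il7r, a cytokine receptor whose signal sustains Bcl2 in T cells, was at -0.46 (SE 0.15, adjusted p = 0.172), Akt1, a kinase of BAD, at -0.31 (adjusted p = 0.183) and Jak1 at -0.37 (adjusted p = 0.230). In the Fas route the adaptor Fadd was at -0.31 (adjusted p = 0.218), Cflar, which encodes the caspase-8 inhibitor c-FLIP, at 0.29 (adjusted p = 0.233) and Casp8 at 0.23 (adjusted p = 0.312). Groups overlapped for Jak1 and did not overlap for the others named up to here, as for 23.7% of all genes tested. Foxo1 and Foxo3, factors known to act on Bcl2l11, were at -0.19 and -0.12 (adjusted p of 0.424 and 0.606), and Mdm2, a p53 target like Bbc3 and Pmaip1, was at -0.01 (adjusted p = 0.973).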
